A study of Mus musculus with 6 samples.

Results

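The 39 Hox genes of the mouse were read in the RNA of PDPN+PDGFRα+ stromal cells from MO5 tumors, with and without depletion of ADAM12+ cells. Members were taken by name, as rows called Hox with a cluster letter from a to d and a paralog number and nothing after it. This gave 40 rows of the 53801 in the count table, for 39 genes, because Hoxd4 is listed under 2 identifiers. MO5 is the B16-OVA melanoma line, a B16 melanoma that carries ovalbumin, and it was implanted subcutaneously in C57Bl/6 mice of 8 to 12 weeks. Cells in the PDPN+PDGFRα+ gate were sorted after dead cells, doublets, CD45+ and CD31+ cells had been gated out. The DTR group (labelled DTR+) held 3 libraries of ADAM12-DTR mice, in which a BAC transgene places tTA and the diphtheria toxin receptor under the Adam12 promoter. The other 3 libraries came from non-transgenic, sex-matched littermates (Ctrl, labelled DTR-), and both groups are labelled as given diphtheria toxin. The labels do not say that each library is a separate mouse, so p-values measure only the spread between these samples.

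Hox genes encode homeodomain transcription factors and lie in 4 clusters, HoxA to HoxD, with their order along the chromosome matching the order of the body regions in which they act in the embryo. Genes at the same place in different clusters are paralogs and share a number, from 1 at the anterior end to 13 at the posterior end. Fibroblasts of adult skin keep a Hox pattern that differs between body sites, and this pattern is often used as a record of positional identity. Hox proteins bind DNA together with cofactors of the TALE class (Pbx, Meis and Pknox), and their clusters are held silent by Polycomb and kept active by trithorax proteins.

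Library totals ran from 22339635 to 34271929 counts. Values are given as CPM, the count of a gene divided by that total and multiplied by 1e+06, and 3 counts, the limit of detection used here, came to 0.0875 to 0.134 CPM. This floor covers counting error only. Adam12, the gene whose promoter drives the transgene, stood at 211, 174 and 181 CPM in Ctrl 1 to 3 and at 165, 153 and 113 CPM in DTR 1 to 3. Each DTR library lay below each Ctrl library, as for 6.35% of all genes tested. The log2 fold change of Adam12 was -0.42 with an adjusted p of 0.602 (edgeR quasi-likelihood test). It was -0.27 without DTR 3, -0.52 without DTR 1 and -0.65 with an offset for genomic span. The gate markers were present in all 6 libraries, with Pdgfra between 41.0 and 134 CPM and Pdpn between 44.2 and 101 CPM. Summed over 12 markers, fibroblast transcripts were high in Ctrl 1 (13762 CPM), DTR 1 (11336 CPM) and DTR 3 (14989 CPM) and low in Ctrl 2 (5246 CPM), Ctrl 3 (5504 CPM) and DTR 2 (5944 CPM). The 12 melanocyte markers, of which 11 were counted and Mc1r was at 0, summed to 16507 to 17081 CPM in the first set and 19379 to 20134 CPM in the second. Transcripts of the other cell types listed were scarcer, with 10 leukocyte markers summing to 63.6 to 133 CPM, 8 keratinocyte markers to 5.14 to 7.15 CPM and 10 skeletal muscle markers to 7.09 to 11.1 CPM. The 10 endothelial markers summed to 33.99, 26.6 and 30.0 CPM in Ctrl 1 to 3 and to 47.8, 34.8 and 103 CPM in DTR 1 to 3. These sums did not overlap, but narrowly, between Ctrl 1 and DTR 2. Singly, 1 of the 6 endothelial markers tested lay higher in DTR without overlap, as did 7.18% of all genes tested. The 10 mural cell markers summed to 54.3 to 95.8 CPM in Ctrl and 44.8 to 60.3 CPM in DTR. All 6 libraries held transcripts of pigment cells, and which cells gave the Hox reads was not tested. In bulk samples of this kind, fewer cells of a type and less RNA per cell cannot be told apart.

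Of the 39 Hox genes, 16 were detected in every library, 8 in at least 1 library but not in all, and 15 in none. At 3 or more counts, HoxB was the only cluster with every gene detected in at least 1 library (10 of 10), and 8 of 10 were detected in all. At 10 or more counts in every library were 3 of 10 HoxB genes, 5 of 11 in HoxA, 0 of 9 in HoxC and 1 of 9 in HoxD. HoxA had 6 of 11 genes detected in any library and 5 in all, HoxC 4 of 9 in any and 1 in all, and HoxD 4 of 9 in any and 2 in all. Among all protein-coding genes of the table, 59% were detected in every library and 72.8% in at least 1. By position, 8 of 12 anterior genes (paralog groups 1 to 4), 7 of 11 central genes (groups 5 to 8) and 9 of 16 posterior genes (groups 9 to 13) were detected in any library. Many of these genes share their span with another gene, as described after the map. Of the genes whose span is not wholly shared, 8 of 9 anterior, 7 of 7 central and 9 of 15 posterior genes were detected, as were 6 of 7 in HoxA, 4 of 6 in HoxC and 4 of 8 in HoxD. HoxB is the cluster in which no gene shares its span. Paralog groups 2 and 7 had every member detected in at least 1 library, and group 12 had none of its 2 members. The map of summed counts by cluster and paralog number shows this pattern.

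**Figure D1:**
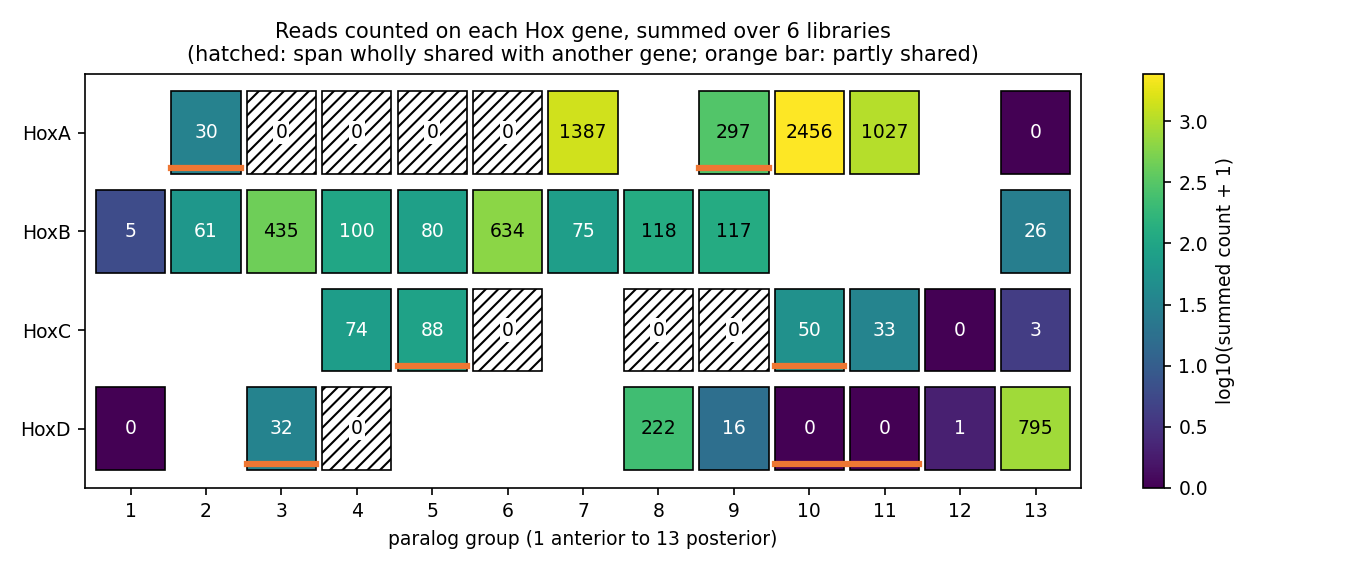
Reads counted on 38 of the 39 Hox genes, summed over the 6 libraries, with clusters as rows and paralog groups 1 to 13 as columns; colour is log10 of the summed count plus 1. Hatched boxes are the 8 genes whose whole span is shared with another gene on the same strand, all at 0, and orange bars mark partly shared spans; Hoxa10 holds the highest sum, 2456 counts.

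Many of the zeros lay where genes overlap each other. The spans of Hoxa3, Hoxa4, Hoxa5, Hoxa6, Hoxc6, Hoxc8, Hoxc9 and Hoxd4 are wholly shared with other genes of the same strand in the GENCODE M21 annotation of GRCm38. The authors name an Ensembl annotation for their counts, so spans in the annotation they used may differ from these. Hoxa3 to Hoxa6 lie within the annotated readthrough gene Gm28308, Hoxc6, Hoxc8 and Hoxc9 lie within the 49987-base span of Hoxc5, and Hoxd4 lies within Hoxd3. All 8 were at 0 in all 6 libraries. Across the table, 241 of 244 protein-coding genes that lie wholly within other genes' spans without sharing an exon base with them were at 0 in every library (98.77%), against 4120 of 17539 with no same-strand neighbor over their span (23.49%). A 0 for these 8 Hox genes is therefore no measure of their expression, and the same holds for the second Hoxd4 identifier, which has no coordinates in that annotation. Gm28308 itself was counted at 2 to 12 reads per library.

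Genes with partly shared spans differed in how many reads they had. Hoxa9, with 1.06% of its span shared, had 37 to 74 counts, and Hoxc5 (60.9% shared) 1 to 25 counts. Hoxd3, with 98.6% of its span shared, had 0 to 15 counts, Hoxc10 (87.3% shared) 0 to 20 counts and Hoxa2 (61.0% shared) 0 to 13 counts. Hoxd10 (71.4% shared) and Hoxd11 (47.9% shared) were at 0 in every library. The genes with no shared span and yet no detected library were Hoxa13, Hoxc12 and Hoxd1, each at 0, Hoxd12 with 1 count in DTR 3 alone, and Hoxc13 with at most 2 counts. Hoxb1 reached 4 counts in DTR 2, Hoxb13 ranged from 0 to 11 counts and Hoxc11 from 0 to 15 counts.

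Counted and uncounted genes lay side by side at the posterior ends of HoxA and HoxD. The promoters of Hoxa11 and its neighbor Hoxa13, and of Hoxd13 and its neighbor Hoxd12, are shown because in each pair one gene was counted in every library and the other was not. They run from 250 bases before to 50 after the RefSeq start, on build GRCm38.p6, 5′ to 3′ on the strand of the gene, with each CG dinucleotide in capitals, the site at which vertebrate DNA is methylated. Hoxa11 is at chr6:52245761-52246060 and Hoxa13 at chr6:52260831-52261130, both on the minus strand, and Hoxd13 is at chr2:74667975-74668274 and Hoxd12 at chr2:74674763-74675062, both on the plus strand.
Hoxa11: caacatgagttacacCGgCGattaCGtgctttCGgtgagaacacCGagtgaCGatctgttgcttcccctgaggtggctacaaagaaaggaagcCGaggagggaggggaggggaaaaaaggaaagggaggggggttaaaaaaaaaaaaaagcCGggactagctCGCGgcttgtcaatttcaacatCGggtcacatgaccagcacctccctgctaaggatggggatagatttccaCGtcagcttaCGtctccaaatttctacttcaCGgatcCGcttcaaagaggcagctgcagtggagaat
Hoxa13: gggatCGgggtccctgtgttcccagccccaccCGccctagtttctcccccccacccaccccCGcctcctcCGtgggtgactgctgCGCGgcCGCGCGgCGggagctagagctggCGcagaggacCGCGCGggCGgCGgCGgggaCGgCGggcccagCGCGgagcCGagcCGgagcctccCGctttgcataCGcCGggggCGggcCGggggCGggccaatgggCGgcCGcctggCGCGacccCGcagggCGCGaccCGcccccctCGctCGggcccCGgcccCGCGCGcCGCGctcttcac
Hoxd13: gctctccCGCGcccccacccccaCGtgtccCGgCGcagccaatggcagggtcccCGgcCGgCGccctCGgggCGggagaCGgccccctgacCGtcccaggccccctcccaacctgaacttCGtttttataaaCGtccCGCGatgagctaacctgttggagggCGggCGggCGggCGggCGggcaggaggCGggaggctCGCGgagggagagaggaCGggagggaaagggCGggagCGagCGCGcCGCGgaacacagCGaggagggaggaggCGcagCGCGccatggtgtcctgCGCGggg
Hoxd12: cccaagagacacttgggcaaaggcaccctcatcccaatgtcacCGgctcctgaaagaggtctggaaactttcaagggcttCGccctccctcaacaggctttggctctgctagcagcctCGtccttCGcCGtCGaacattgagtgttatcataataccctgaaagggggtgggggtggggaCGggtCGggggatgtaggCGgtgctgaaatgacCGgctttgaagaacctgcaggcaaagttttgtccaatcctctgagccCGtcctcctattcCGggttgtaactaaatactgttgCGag

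Hoxa11 had 1027 counts over the 6 libraries and 15 CG dinucleotides in this window, while Hoxa13 had 0 counts and 45. The other pair ran the opposite way, with 795 counts and 37 CG for Hoxd13 against 1 count and 13 CG for Hoxd12. The 24 Hox promoters in the RefSeq table, from 22 of the genes, held 4 to 45 CG with a median of 14.5, and the median over all 32851 promoters was 7. The motif TAAT, the core that homeodomains bind, was present on either strand in 19 of the 24 (79.2%), against 58.0% of all promoters, and TATAAA on either strand in 4 (16.7%), against 13.6% of all. Among the 4 promoters printed, TAAT was in Hoxa11 and Hoxd12 and TATAAA in Hoxd13.

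Where Hox genes were counted, a few genes led. Hoxa10, Hoxa7, Hoxa11 and Hoxd13 together took between 59.7% and 75.0% of all Hox counts in each library. Levels between genes were compared as CPM per kilobase of exon that no other same-strand gene shares, as the mean ± SD over 6 libraries. Hoxa10 stood first at 4.53 ± 0.497 and was above the next gene, Hoxa7, in 6 of 6 libraries. Hoxa7 (2.97 ± 0.720), Hoxa11 (2.71 ± 0.721), Hoxb6 (1.99 ± 0.412) and Hoxd13 (1.92 ± 0.286) followed, and each overlapped its neighbor in this order. The range of Hoxd13 did not overlap that of Hoxb3 (0.615 ± 0.267). Among the described genes that passed the filter on low counts, the remaining order ran through Hoxd8, Hoxa9, Hoxb7, Hoxb8, Hoxb9, Hoxb4, Hoxc5, Hoxc4 and Hoxb5 to Hoxb2 at 0.105 ± 0.0549, and every neighbor in it overlapped the next. Genes that failed the filter fell inside this order, with Hoxc10 at 0.452 ± 0.291 and Hoxd3 at 0.362 ± 0.376 per kilobase of the little exon that they do not share, and Hoxa2 at 0.181 ± 0.160. The sources used here do not say whether exons or whole gene spans were counted, and the zeros of nested genes that share no exon base leave exon length in doubt as the base of this order. Per kilobase of unshared span, introns included, Hoxa11 came first, before Hoxa10, Hoxd13, Hoxa7 and Hoxb6. Hoxb3, sixth of the 16 genes per kilobase of exon, was then at place 13, and Hoxb5 moved from place 15 to place 10.

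Summed over the 39 genes, Hox transcripts made up 48.9, 49.4 and 50.3 CPM in Ctrl 1 to 3 and 49.0, 56.1 and 55.8 CPM in DTR 1 to 3. The groups overlapped, with 49.5 ± 0.716 CPM in Ctrl and 53.6 ± 3.98 CPM in DTR (SD, n = 3 each). HoxA gave most of it, 32.6 ± 4.18 CPM in Ctrl and 34.5 ± 1.86 CPM in DTR. HoxB gave 9.90 ± 2.34 and 10.3 ± 1.64 CPM, HoxD 5.76 ± 0.638 and 7.12 ± 0.920 CPM, and HoxC 1.28 ± 0.625 and 1.78 ± 0.769 CPM. Of these cluster sums only that of HoxD separated the groups, narrowly, with Ctrl libraries at 5.04 to 6.26 CPM and DTR libraries at 6.33 to 8.13 CPM. On TMM-scaled totals the groups overlapped, with Ctrl 1 at 6.41 CPM and DTR 1 at 6.31 CPM. Among single genes tested, 7.18% lay higher in DTR without overlap. By position, posterior genes summed to 29.1 ± 3.70 CPM in Ctrl and 29.1 ± 1.71 CPM in DTR, central genes to 14.5 ± 1.80 and 17.7 ± 4.76 CPM, and anterior genes to 5.97 ± 1.24 and 6.88 ± 1.38 CPM. The high central mean of DTR came with DTR 3, at 22.7 CPM, and without it the difference between groups was 0.634 CPM in place of 3.17 CPM. These sums leave out what the 8 wholly shared genes may express. Fibroblast marker sums ran from 5246 to 14989 CPM over the same libraries, and the plot of marker and Hox sums shows the 3 quantities side by side.

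**Figure D2:**
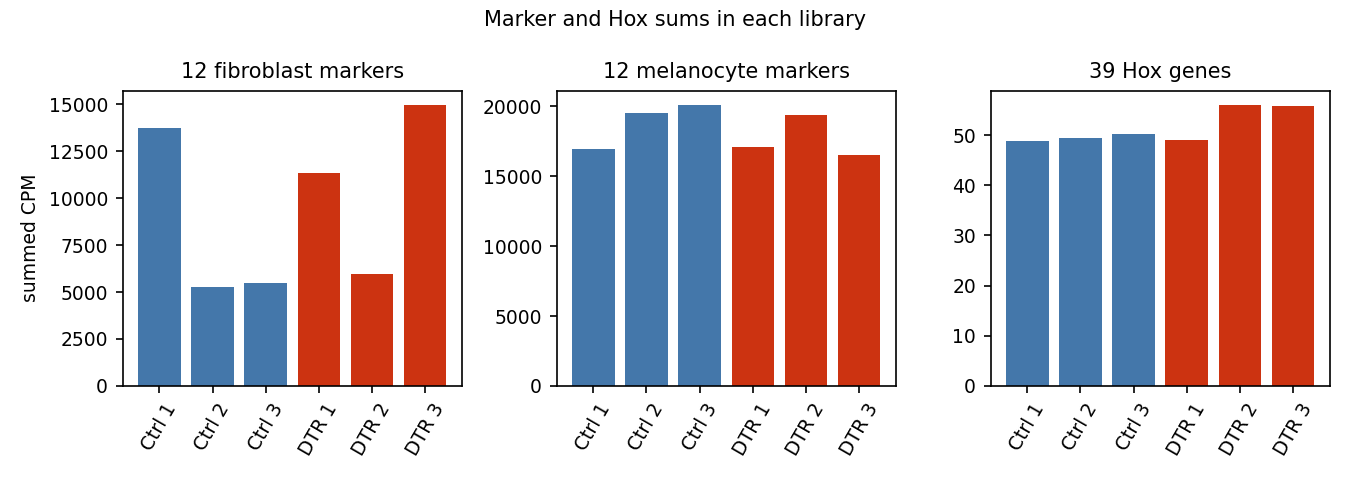
Summed CPM in each of the 6 libraries (bars, blue Ctrl and red DTR) for 12 fibroblast markers, 12 melanocyte markers and the 39 Hox genes, each on its own axis from 0. Fibroblast sums are high in Ctrl 1, DTR 1 and DTR 3, melanocyte sums are high in the other libraries, and Hox sums run from 48.9 to 56.1 CPM.

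Depletion of ADAM12+ cells was compared with control by edgeR's quasi-likelihood test across the 15133 genes that passed a filter on low counts. That test called no gene of any kind at an adjusted p under 0.05 (0%), with 1199 genes (7.92%) at an unadjusted p under 0.05, which were 3.81% higher and 4.11% lower in DTR, and DESeq2's Wald test called 31 of 26748 genes (0.116%). Of the 39 Hox genes, 17 passed the filter, and 0 of them had an adjusted or an unadjusted p under 0.05 in edgeR. DESeq2 gave a p for 26 Hox genes and called 0, with 0 at an unadjusted p under 0.05. In edgeR 11 of the 17 had higher and 6 lower fitted values in DTR, where 49.6% of all genes tested were higher. Their median log2 fold change was 0.037, against -0.0029 over all genes tested, and it ran from 0.046 to 0.24 with 1 library left out. For 0 of the 17 did the 3 libraries of one group stand apart from the other 3, which held for 13.5% of all genes tested. The lowest adjusted p was 0.666. Among marker lists, 12 of 12 fibroblast markers had higher fitted values in DTR (median 0.43), as had 5 of 6 endothelial markers tested (median 0.56), while 9 of 11 melanocyte markers tested (median -0.11) and 6 of 7 mural cell markers tested (median -0.73) had lower ones, with 0 called. At an unadjusted p under 0.05 were 0 fibroblast, 2 endothelial, 1 melanocyte and 1 mural cell markers. Apart from a fit with the fibroblast marker sum as a covariate, their part in the Hox values was not tested.

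**Figure D3:**
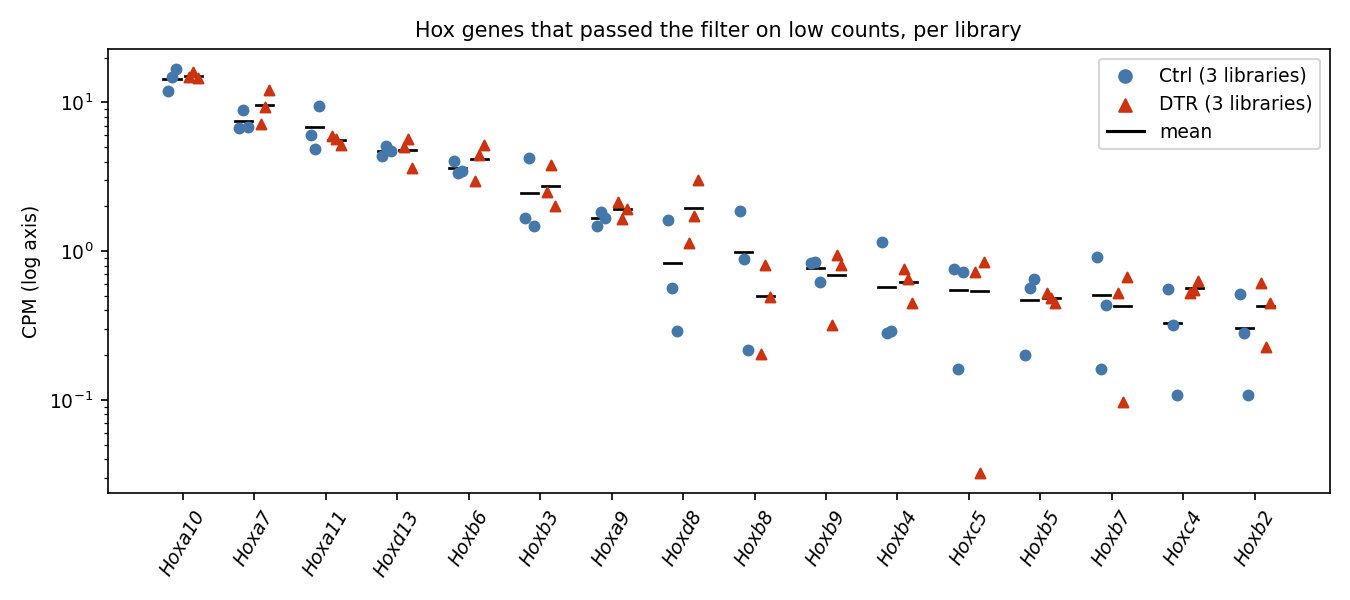
CPM of 16 of the 17 Hox genes that passed the filter, on a log axis, with 3 Ctrl libraries (blue circles), 3 DTR libraries (red triangles) and group means (black lines). Ctrl and DTR values overlap for each of the 16 genes, and the spread within a group widens toward the low end.

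Hoxa10 (ENSMUSG00000000938, chromosome 6, 52231197 to 52240854, minus strand) is a posterior gene known for its role in the lumbar region, the limb and the uterus. It was counted at 11.95, 14.8 and 16.7 CPM in Ctrl 1 to 3 and at 14.9, 16.0 and 14.5 CPM in DTR 1 to 3. Its DTR libraries lay inside the Ctrl range, and the log2 fold change was 0.04 with a 95% interval of -0.31 to 0.38. This was the narrowest interval among the Hox genes described.

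Hoxa7 (ENSMUSG00000038236), a central gene that helps to pattern the trunk, stood at 6.77, 8.96 and 6.86 CPM in Ctrl and at 7.21, 9.33 and 12.1 CPM in DTR. Only DTR 2 and DTR 3 exceeded the highest Ctrl library, and the log2 fold change was 0.31 (-0.25 to 0.87), which was 0.10 without DTR 3 and 0.49 without DTR 1. Hoxa11 (ENSMUSG00000038210), needed for the forearm and the kidney, stood at 6.06, 4.90 and 9.43 CPM in Ctrl and at 5.95, 5.66 and 5.15 CPM in DTR. Its log2 fold change of -0.30 (-0.90 to 0.30) became -0.027 without Ctrl 3. Hoxa9 (ENSMUSG00000038227), a gene also known from blood stem cells and leukemia, stood at 1.47, 1.85 and 1.67 CPM in Ctrl and 2.16, 1.66 and 1.92 CPM in DTR, with a log2 fold change of 0.17 (-0.61 to 0.96) that was 0.083 without DTR 1 and 0.28 without Ctrl 2.

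Hoxd13 (ENSMUSG00000001819, chromosome 2, 74668310 to 74671599, plus strand), which patterns the digits and the genital tubercle, was the most counted HoxD gene. It stood at 4.38, 5.06 and 4.72 CPM in Ctrl and at 5.02, 5.72 and 3.63 CPM in DTR, with a log2 fold change of -0.0065 (-0.60 to 0.58). Hoxd8 (ENSMUSG00000027102), a central gene, had the highest fitted fold change of the 17 genes tested. It was at 1.63, 0.563 and 0.290 CPM in Ctrl and at 1.14, 1.72 and 3.00 CPM in DTR. Ctrl 1 lay above DTR 1, so the groups overlapped, and the log2 fold change was 1.18 ± 0.69 (SE) with an adjusted p of 0.666 by edgeR, and 0.2 by the two-sided exact permutation test, whose smallest possible p for 3 against 3 is 0.1. Leaving out 1 library at a time gave 0.75 to 2.15.

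Hoxd9, the gene beside it, failed the filter but was the 1 Hox gene whose groups did not overlap. It had 1, 0 and 0 counts in Ctrl 1 to 3 and 4, 6 and 5 counts in DTR 1 to 3. The ratio of DTR to Ctrl counts, scaled to library totals, was 13.3 with a 95% interval of 2.05 to 560.5 that covers counting error only, and DESeq2 gave an adjusted p of 0.847. It was picked out of 39 genes for its separation, and all its values are at or near the floor. Among all genes tested, 13.5% had groups that did not overlap, and no such share was taken over genes that failed the filter.

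In HoxB, Hoxb6 (ENSMUSG00000000690), a central gene, was the most counted member, at 4.06, 3.34 and 3.45 CPM in Ctrl and 2.98, 4.46 and 5.15 CPM in DTR. Its log2 fold change was 0.18 (-0.49 to 0.85), which was 0.011 without DTR 3 and 0.39 without DTR 1. Hoxb3 (ENSMUSG00000048763), which acts in the hindbrain and pharyngeal region, was at 1.67, 4.22 and 1.49 CPM in Ctrl and 2.51, 3.77 and 2.01 CPM in DTR, with the highest library in Ctrl and a log2 fold change of 0.13 (-1.01 to 1.27). Hoxb8 (ENSMUSG00000056648), known from sensory neurons and myeloid cells, had the lowest fitted fold change of the 17 genes tested. It was at 1.87, 0.884 and 0.218 CPM in Ctrl and 0.204, 0.813 and 0.492 CPM in DTR, a log2 fold change of -1.02 ± 0.83 (SE), with an adjusted p of 0.752 by edgeR. The group difference rested on Ctrl 1, without which it was -0.17.

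The other HoxB members that passed the filter had group means under 1 CPM. Hoxb4, known for expanding blood stem cells, was at 1.16, 0.281 and 0.290 CPM in Ctrl and 0.759, 0.650 and 0.448 CPM in DTR. Hoxb9, a posterior gene of the thorax, was at 0.837, 0.844 and 0.617 CPM in Ctrl and 0.321, 0.943 and 0.806 CPM in DTR. Neither separated the groups, with log2 fold changes of 0.08 for Hoxb4 and -0.19 for Hoxb9. With 1 library left out these ran from -0.26 to 1.09 and from -0.50 to 0.17. Hoxb2 ran from 0.109 to 0.613 CPM over the 6 libraries, Hoxb5 from 0.199 to 0.653 CPM and Hoxb7 from 0.0976 to 0.917 CPM. Their log2 fold changes were 0.47, 0.02 and -0.27, each with a standard error larger than the change. That of Hoxb2 was 0.050 without Ctrl 3 and 1.10 without Ctrl 1.

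In HoxC, 2 genes passed the filter, and what each covers differs. Hoxc4 (ENSMUSG00000075394), the anterior end of the cluster, shares no span and was at 0.558, 0.322 and 0.109 CPM in Ctrl and 0.525, 0.553 and 0.627 CPM in DTR. Its log2 fold change was 0.74 (-0.78 to 2.26), which became 0.31 without Ctrl 3 and 1.35 without Ctrl 1. The annotated span of Hoxc5 (ENSMUSG00000022485) encloses Hoxc6, Hoxc8 and Hoxc9, and 39.1% of that span is shared with no other gene. Where in this part its reads lie is not known, because the feature type counted is not given. Hoxc5 was at 0.757, 0.161 and 0.726 CPM in Ctrl and 0.729, 0.0325 and 0.851 CPM in DTR. It was thus high in Ctrl 1, Ctrl 3, DTR 1 and DTR 3 and low in 1 library of each group, with a log2 fold change of -0.06 (-2.30 to 2.17).

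**Figure D4:**
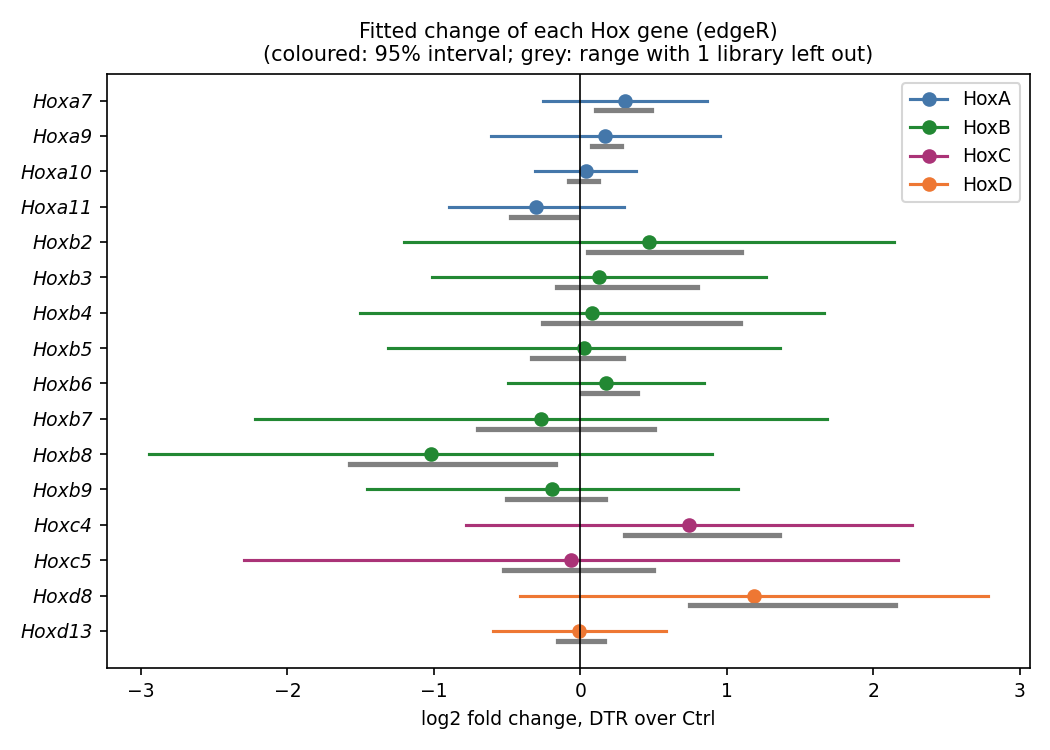
Fitted log2 fold change, DTR over Ctrl, of 16 of the 17 Hox genes tested, grouped by cluster (colours), with 95% intervals from edgeR and, in grey below each, the range when 1 library at a time was left out. Each of the 16 intervals includes 0, from Hoxa10 (-0.31 to 0.38) to the wide ones of Hoxb8 and Hoxd8.

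Precision was greater for the most counted genes but did not follow depth gene by gene. The median standard error of the log2 fold change was 0.25 for the 4 most counted Hox genes and 0.55 over the 17. Hoxd8 (222 counts in all) had 0.69 and Hoxb8 (118 counts) 0.83, against 0.55 for Hoxb9 (117 counts). Changes of the size fitted for Hoxd8 and Hoxb8 were not separable from library spread. For Hoxb2, Hoxb7 and Hoxc5 each of the 3 libraries with high fibroblast marker sums (Ctrl 1, DTR 1 and DTR 3) was above each of the other 3. This is 3 of 17 Hox genes against 6.97% of all genes tested. For Hoxc5 it rested on a near tie, with DTR 1 at 0.729 CPM and Ctrl 3 at 0.726 CPM. For 0 of 17 were the 3 libraries with high melanocyte sums on top, against 6.17% of all genes tested. Hoxa10 followed neither split, with Ctrl 3, DTR 1 and DTR 2 highest. The part of cell composition in these values was not tested beyond a fit with the fibroblast marker sum as a covariate, added after seeing the data, in which 0 Hox genes were called and the median log2 fold change of the 17 was 0.13. In that fit Hoxc5 came to -1.08 from -0.06, Hoxb7 to -0.998 from -0.27 and Hoxb2 to 0.13 from 0.47, while Hoxb5 came to 0.42 from 0.02.

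The noncoding RNAs of the clusters were read from a list of 18, of which 17 were in the table and 5 passed the filter. Of these 5, 2 were higher and 3 lower in DTR with 0 called, and the median log2 fold change was -0.19, which was 0.22 without Ctrl 3. In edgeR 1 of the 5 had an unadjusted p under 0.05, as had 7.92% of all genes tested. Hoxb3os, an antisense RNA whose span covers part of Hoxb3 and the whole of Hoxb2 (chromosome 11, 96343072 to 96354691, minus strand), had the lowest value of the 5. It was at 1.43, 2.29 and 2.21 CPM in Ctrl and 0.554, 0.715 and 0.895 CPM in DTR, so each DTR library lay below each Ctrl library, as for 6.35% of all genes tested. Its log2 fold change was -1.49 ± 0.42 (SE), unadjusted p = 0.00784 and adjusted p = 0.602 by edgeR, and it stayed between -1.67 and -1.32 with any 1 library left out. On the other strand Hoxb3 gave 0.13 and Hoxb2 0.47, both with overlapping groups. Counting used strand, so reads of the 2 strands were kept apart.

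Hoxd3os1, antisense to Hoxd8 and the start of Hoxd3, was at 0.877, 1.65 and 1.45 CPM in Ctrl and 2.01, 1.89 and 1.70 CPM in DTR, without overlap, and its log2 fold change of 0.47 had an adjusted p of 0.759 by edgeR and was 0.25 without Ctrl 1. Halr1, a noncoding RNA beyond the anterior end of HoxA, was the most counted of the list, at 3.19, 3.74 and 4.57 CPM in Ctrl and 2.92, 3.77 and 2.60 CPM in DTR. Hotairm1, at the anterior end of HoxA, was highest in Ctrl 3 at 2.90 CPM and ran from 0.924 to 1.79 CPM elsewhere, and Hoxa11os gave a log2 fold change of 0.0025, which ran from -0.27 without DTR 2 to 0.30 without DTR 3. Hotair, encoded in HoxC, had 5 counts in Ctrl 1 and 0 elsewhere, and Hottip, beside Hoxa13, was at 0 in all 6 libraries, as was Haglr. Hoxaas2 had 0 to 27 counts, Hoxaas3 had 2 to 15 and Hoxb5os had 0 to 6.

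The hairpins of 6 microRNA genes in the clusters were at 0 in every library. Those of Mir10b, Mir196b, Mir196a-2 and Mir615 lie wholly within Hox genes of the same strand, and Mir10a and Mir196a-1 do not. The mature 5p sequences of the miR-10 and miR-196 families, which target Hox mRNAs, are given from RefSeq to show which families these libraries leave unmeasured, with the seed (bases 2 to 8) in capitals.
miR-10a-5p: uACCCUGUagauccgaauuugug
miR-10b-5p: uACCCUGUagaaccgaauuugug
miR-196a-5p: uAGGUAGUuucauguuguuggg
miR-196b-5p: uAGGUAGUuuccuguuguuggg
The miR-10 members share the seed ACCCUGU and the miR-196 members the seed AGGUAGU, so each family stands as 1 group.

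All 9 TALE cofactors passed the filter, of which 7 were higher and 2 lower in DTR with 0 called, and their median log2 fold change was 0.25. Meis2, the most counted, was at 73.7, 87.1 and 95.2 CPM in Ctrl and 106, 126 and 80.4 CPM in DTR, with overlap at DTR 3.

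Meis1, a cofactor also known from blood stem cells, was at 9.52, 6.67 and 11.4 CPM in Ctrl and 14.97, 12.4 and 14.1 CPM in DTR. Each DTR library exceeded each Ctrl library, as for 7.18% of all genes tested, with a log2 fold change of 0.57 (adjusted p = 0.602 by edgeR). Pknox1 separated the other way, at 25.4, 28.1 and 25.8 CPM in Ctrl and 22.8, 20.4 and 23.2 CPM in DTR, a log2 fold change of -0.29 (adjusted p = 0.604 by edgeR). Meis3 had the lowest value of the list, -0.35, with overlapping groups, and it was -0.56 without DTR 3. With an offset for genomic span the median of the list was 0.069, Meis1 came to 0.41 and Pknox1 to -0.37.

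**Figure D5:**
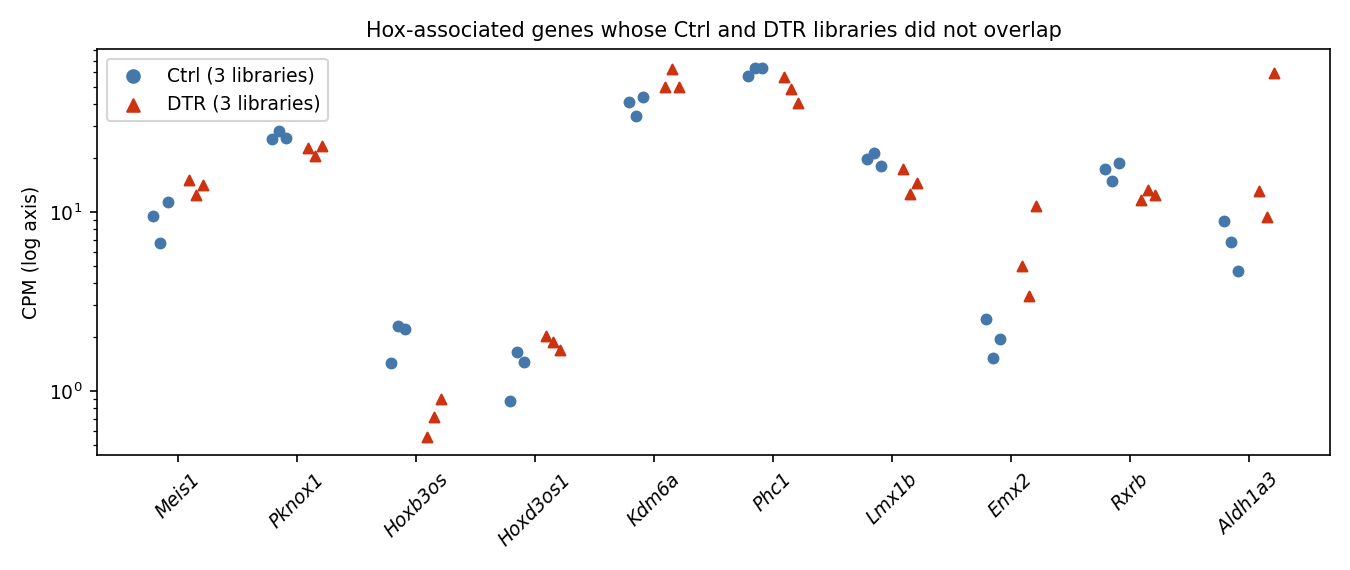
CPM on a log axis of 10 Hox-associated genes chosen because their 3 Ctrl libraries (blue circles) and 3 DTR libraries (red triangles) do not overlap. Each had an adjusted p of 0.602 or more by edgeR. The lists held further genes without overlap that are not shown, and 13.5% of all genes tested did not overlap. Hoxb3os lies at 1.43 to 2.29 CPM in Ctrl and 0.554 to 0.895 CPM in DTR, and Emx2 at 1.53 to 2.51 CPM in Ctrl and 3.38 to 10.8 CPM in DTR.

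Polycomb and trithorax genes, which hold the state of the clusters, gave a median close to that of all genes tested. Of 32 listed, 31 passed the filter, 13 were higher and 18 lower with 0 called, and the median was -0.036. Kdm6a, a demethylase that removes the Polycomb mark on histone H3, was at 41.2, 34.4 and 44.0 CPM in Ctrl and 49.95, 62.6 and 49.6 CPM in DTR and had the highest separated value, 0.41. Phc1, a subunit of Polycomb repressive complex, was at 57.6, 63.6 and 63.8 CPM in Ctrl and 56.8, 48.6 and 40.4 CPM in DTR, a log2 fold change of -0.37. In all, 3 of the 31 lay higher and 4 lower without overlap, where 7.18% of all genes tested lay higher and 6.35% lower. The others that lay higher were Ring1 (0.19) and Pcgf2 (0.18), and the others that lay lower were Bap1 (-0.23), Rbbp5 (-0.17) and Dot1l (-0.12). Without DTR 3, Ring1 came to 0.093 and Pcgf2 to 0.10, and Dot1l came to -0.052 without Ctrl 1. Phf19 had the lowest value (-0.83, and -0.47 without DTR 3), with overlap, and Suz12 was the most counted at 121 to 147 CPM. Cbx6, whose span is 95.8% shared, had 9 counts in all.

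Of 50 other positional transcription factors, 22 passed the filter, 13 of them higher and 9 lower in DTR with 0 called and a median of 0.030. Emx2, a homeobox gene of the forebrain, the urogenital tract and the shoulder blade, was at 2.51, 1.53 and 1.96 CPM in Ctrl and 4.99, 3.38 and 10.8 CPM in DTR. Its log2 fold change was 1.64 ± 0.46 (SE), unadjusted p = 0.00721 and adjusted p = 0.602 by edgeR, and it was 1.04 without DTR 3. Lmx1b, which sets dorsal identity in the limb, was at 19.8, 21.2 and 18.0 CPM in Ctrl and 17.3, 12.6 and 14.5 CPM in DTR, a log2 fold change of -0.44. Tbx5 had the highest value, 1.76, on 0 to 25 counts with overlapping groups, and this value ran from 1.16 without Ctrl 3 to 3.99 without Ctrl 1. Pax3, a gene of melanocytes and muscle precursors, was the most counted at 228 to 278 CPM with a log2 fold change of 0.02.

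Retinoic acid sets Hox expression in the embryo, and 14 of 18 genes of its pathway passed the filter, 5 higher and 9 lower with 0 called and a median of -0.10, which was 0.042 without Ctrl 3. Aldh1a3, which makes retinoic acid, was at 8.89, 6.75 and 4.68 CPM in Ctrl and 13.1, 9.40 and 59.4 CPM in DTR. The groups did not overlap, and its log2 fold change of 1.96 came down to 0.70 when DTR 3 was left out. Rxrb, a receptor subunit, was at 17.4, 14.9 and 18.8 CPM in Ctrl and 11.7, 13.2 and 12.5 CPM in DTR, a log2 fold change of -0.48 (adjusted p = 0.602 by edgeR). Of the 14, 3 lay higher and 2 lower without overlap, where 7.18% of all genes tested lay higher and 6.35% lower, the others being Rdh10 (0.50), Dhrs3 (0.31) and Rara (-0.20). Without Ctrl 2, Rdh10 came to 0.22 and Dhrs3 to 0.11, and Rara came to -0.12 without DTR 1. Crabp1 had the lowest value (-1.16, and -0.48 without Ctrl 3), with overlap, and Rxra was the most counted at 39.8 to 44.9 CPM.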

How the data were processed

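Counts were used for 6 libraries, 3 Ctrl and 3 DTR, made with the SMARTer Stranded Total RNA-Seq kit. The authors trimmed reads with cutadapt 3.4, aligned them to GRCm38 with STAR 2.7.3a, counted them by strand with featureCounts 2.0.1 and deposited the raw counts. The feature type counted and the handling of overlapping genes are not given in the sources used here. The table also holds 6 columns of normalized values, and the authors' fold changes and p-values, none used here. Of 53801 genes, 27987 had no name in the table and 53620 were placed on GENCODE M21.

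The members and lists were chosen with earlier results of these data known. Genes were kept by filterByExpr (minimum count 10, minimum total 15), scaled by TMM and compared by edgeR's quasi-likelihood test, two-sided, with Benjamini-Hochberg adjustment over 15133 genes. Overlap of groups was read on CPM, and exact permutation tests on log2(CPM + 0.5). Intervals are 95%. Every Hox gene was to be accounted for (2 genes of the lists, kept in all counts, sums and medians, are not reported here), and from each other list the lowest, the highest, the most counted and up to 4 non-overlapping genes were to be named, with Adam12, Pdgfra and Pdpn. Genes named beyond this were chosen after their values were seen. The steps were tested on simulated data. Versions were edgeR 4.0.16 and DESeq2 1.42.0 in R 4.3.3, with tables made in Python 3.11.15 and figures in matplotlib 3.10.9.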

Additional observations from a re-analysis of the deposited data

How the results depend on the processing

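In 15 fits of all genes, 0 Hox genes had an adjusted p under 0.05, the lowest being 0.520. Over all genes, DESeq2 called 31 and leaving out 1 library gave 0 to 2 calls, and keeping every gene with a count gave 1810 genes at an unadjusted p under 0.05. Of the 16 Hox genes described singly, 8 held their sign in every fit in which they were tested. With all libraries, the other sign came for Hoxd13 with DESeq2-type size factors (0.0023), library totals alone (0.024), DESeq2 (0.0041), the span offset (0.0024) and the fibroblast covariate (0.087).

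With 1 library left out, log2 fold changes ran from -0.076 to 0.12 for Hoxa10, -0.16 to 0.80 for Hoxb3, -0.26 to 1.09 for Hoxb4, -0.33 to 0.29 for Hoxb5, -0.70 to 0.50 for Hoxb7, -0.50 to 0.17 for Hoxb9, -0.52 to 0.50 for Hoxc5 and -0.15 to 0.16 for Hoxd13. The Hox median ran from 0.046 to 0.24, highest without Ctrl 1. It was 0.16 with 18 Hox genes higher when every gene with a count was kept and 0.16 with 19 higher in DESeq2, and 6 were higher and 3 lower when 10 counts were required in every library. These settings tested other numbers of genes. At 10 or more counts, 9 Hox genes were detected in every library.

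List medians moved without DESeq2 or edgeR calls. With 1 library left out they ran from -0.42 to 0.22 for cluster noncoding RNAs, 0.081 to 0.25 for cofactors, -0.041 to 0.013 for Polycomb and trithorax genes, 0.071 to 0.12 for positional factors and -0.16 to 0.042 for the retinoic acid pathway. The positional factors gave 0.061 on library totals alone, 0.0018 with the span offset and 0.090 with the covariate, the cofactors 0.069 with the offset and 0.16 with the covariate, and the Polycomb genes -0.084 with the offset. The cause was not tested.

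Same-numbered libraries correlated at 0.114, 0.132 and -0.042 in their deviations, against -0.215 to 0.102 for libraries with different numbers. With 3 libraries per group, these values cannot decide whether the numbers pair the libraries. With the number as a replicate block, 0 genes were called, and Hoxd8 came to 1.38 and Hoxb8 to -0.74. The DTR minus Ctrl difference in summed CPM changed sign without 1 library for HoxB (0.385 with all, -0.938 to 1.27) and posterior genes (0.0328 with all, -1.57 to 2.06, and -0.497 on TMM-scaled totals). It stayed above 0 for all Hox genes (2.89 to 6.41), HoxA (0.0452 to 4.15), HoxC (0.144 to 0.910), HoxD (0.850 to 1.75), anterior genes (0.158 to 1.51) and central genes (0.634 to 5.35). Depth limits the low genes: 3 counts are 0.0875 to 0.134 CPM.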

Other observations

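The T-box genes that mark limb identity were unevenly counted. Tbx4, known from the hindlimb, had 533 to 964 counts in each of the 6 libraries and a log2 fold change of -0.01, while Tbx5, known from the forelimb, had 0 to 25 counts. Pitx1, which acts above Tbx4 in the hindlimb, had 0 to 14 counts. Tbx15, known from dorsal skin, had 482 to 884 counts, and Alx1, known from the face, had 486 to 922. The genes Evx1 and Evx2, which lie beside the posterior ends of HoxA and HoxD, were at 0 in all 6 libraries, as were Cdx1, Cdx2 and Cdx4, which act on Hox clusters in the embryo. Cyp26a1, which breaks down retinoic acid and failed the filter on low counts, had 0, 0 and 1 counts in Ctrl 1 to 3 and 12, 5 and 9 counts in DTR 1 to 3, with an adjusted p of 0.584 by DESeq2. These genes were picked after their values were seen.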
